A study of Rattus norvegicus with 16 samples.

Results

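Among the 16 rat libraries of this series, the 8 female ones fall on 2 sides by their level of Chat, the gene for choline acetyltransferase, the enzyme that makes acetylcholine. The sides were chosen on measured values: 4 libraries with Chat above 37 CPM (read counts scaled to library size, with trimmed mean of M-values, TMM) are called Chat-rich, and the other 4 Chat-poor. The Chat-rich side holds wild-type animals 64 and 504 and Pink1-/- animals 548 and 736. The Chat-poor side holds wild-type animals 111 and 980 and Pink1-/- animals 602 and 983. Each side therefore has 2 libraries of each genotype, and the sides were compared across genes with genotype as a covariate. Because Chat itself drew the line, differences between the sides are given as a description, with no p-value for any gene and only counts of genes past a threshold, and nothing is supported by them. Tests are given for the male libraries, the genotype and the properties of the libraries, which the split did not use. The interaction of side and genotype was tested as well, and it does use the sides drawn from Chat.

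The study measured RNA in wild-type and Pink1-/- rats of each sex, with 4 libraries per combination of sex and genotype and all animals aged 8 months. Pink1 encodes a mitochondrial kinase, and the Pink1-/- genotype disrupts it, while the labels name neither the strain nor the allele. The series title names the nucleus ambiguus, whereas each label gives the tissue as brain, and neither a treatment nor the level at which each brain was cut is given for any group. Each library carries its own animal number and is taken as 1 animal.

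The nucleus ambiguus is a column of cholinergic motor neurons in the ventrolateral medulla whose axons leave through cranial nerves to the larynx, pharynx and upper oesophagus, with parasympathetic neurons for the heart beside them. Its motor neurons belong to the branchial and visceral classes, which in the mouse use transcription factors such as Tbx20, whereas somatic motor neurons use Mnx1 and Lhx3. Hox genes are expressed in an ordered way along the hindbrain and spinal cord, the higher paralog groups reaching only to more caudal levels. In bulk tissue, fewer motor neurons and less RNA per motor neuron cannot be told apart.

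Total counts of the 8 female libraries ran from 13875621 to 26570195, and 18335 to 18994 genes had at least 1 count. Total counts, genes with a count and the shares of counts in mitochondrially encoded protein genes, mitochondrial clone loci, 7SL RNA and the 50 most abundant genes overlapped between the sides. In exact 2-sided permutation tests of 4 libraries against 4, where the smallest possible p is 0.0286, their p ran from 0.486 to 0.914, and from 0.891 to 0.914 adjusted over the 6 measures. Pink1-/- 548 stood apart in the mitochondrial clone loci, with 1.77% of its counts against 8.08% to 11.9% in the other libraries. Pink1 stood at 115 to 137 CPM in the wild-type and 4.68 to 11.6 CPM in the Pink1-/- females, so every female library matched its genotype label.

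Values per library follow a fixed order. For the Chat-rich side it is wild-type 64, wild-type 504, Pink1-/- 548 and Pink1-/- 736, and for the Chat-poor side wild-type 111, wild-type 980, Pink1-/- 602 and Pink1-/- 983. Each log2 difference is Chat-rich minus Chat-poor with its standard error (SE), with 4 libraries a side. A gene is called where its Benjamini-Hochberg adjusted p in edgeR's quasi-likelihood fit was under 0.05, a threshold used for this contrast only to sort genes.

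Chat stood at 55.0, 76.9, 40.9 and 57.4 CPM in the Chat-rich libraries, from 1012, 1761, 944 and 1221 counts. In the Chat-poor libraries it stood at 6.24, 33.7, 13 and 16.7 CPM, from 116, 854, 189 and 372 counts. The library just inside the threshold was Pink1-/- 548 and the one just outside it wild-type 980, whose Chat lies nearer to that of 548 than to that of any other Chat-poor library. The log2 difference in Chat was 1.71 ± 0.37. All 8 male libraries, at 6.78 to 27.1 CPM, lay under the threshold, but their table was scaled separately.

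Slc18a3, the vesicular acetylcholine transporter, lies within the Chat locus, and its RefSeq start is 602 bases from that of Chat on the same strand, so counts of the 2 genes may be shared in part. Uts2 was the called gene with the largest positive difference among those the naming rule took. Like Chat, which drew the sides, and Slc18a3, it was separate between them. This is not particular to the 3 genes, since 733 of 15264 genes tested (4.8%) were higher without overlap. Shown are the windows of 250 bases before the starts of the 3 genes. They come from RefSeq on build GRCr8 and read 5′ to 3′ on the strand of the gene. Capitals mark matches on either strand to any of 3 motifs, chosen after the windows had been seen. The first is CAGCTG, an E-box. The second is TATAAA, the usual motif bound by the TATA-binding protein, whose other strand reads TTTATA. The third is TAATTA, a core bound by many homeodomain factors.
Chat, chr16:7723417-7723666, minus strand: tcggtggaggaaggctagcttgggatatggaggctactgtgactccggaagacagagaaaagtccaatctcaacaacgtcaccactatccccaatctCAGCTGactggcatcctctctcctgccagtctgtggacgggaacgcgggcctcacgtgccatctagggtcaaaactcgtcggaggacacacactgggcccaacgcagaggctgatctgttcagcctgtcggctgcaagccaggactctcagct
Slc18a3, chr16:7722815-7723064, minus strand: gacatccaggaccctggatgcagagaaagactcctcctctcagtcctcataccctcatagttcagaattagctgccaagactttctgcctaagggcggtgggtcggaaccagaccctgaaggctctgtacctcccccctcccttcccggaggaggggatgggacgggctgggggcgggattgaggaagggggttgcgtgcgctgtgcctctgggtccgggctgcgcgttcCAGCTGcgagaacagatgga
Uts2, chr5:166733421-166733670, plus strand: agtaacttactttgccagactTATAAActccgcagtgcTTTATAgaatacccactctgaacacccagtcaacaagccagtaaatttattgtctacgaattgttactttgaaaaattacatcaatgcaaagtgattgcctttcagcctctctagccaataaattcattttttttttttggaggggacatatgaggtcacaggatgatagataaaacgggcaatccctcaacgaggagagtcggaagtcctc
The Chat window held CAGCTG at bases -153 to -148 from the start, and the Slc18a3 window at -20 to -15. The Uts2 window held the TATAAA motif at 2 places, the first at -229 to -224. Of all 33469 RefSeq windows of this length, 12% held CAGCTG, 12.9% held TATAAA on either strand and 4.86% held TAATTA. A match is a description of these letters only.

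The Chat-rich libraries held more transcript of most genes that define cholinergic motor neurons. Of the other 15 genes in the list of cholinergic motor neuron identity, 14 were high enough to enter the fit, and 12 of these had a positive difference. Their median log2 difference was 1.55, against 0.0023 over all 15264 genes tested, 50.5% of which were positive. Across all genes 87 were called higher (0.57%) and 93 lower (0.609%), and 3 of the 14 were called higher. Scaled by library totals alone, 8 of the 14 were called, and their median was 1.52. The libraries of the sides did not overlap for 7 of the 14, against 733 genes over the whole table that were higher without overlap (4.8%) and 775 that were lower (5.08%). Since Chat is a member of this list and drew the sides, nothing is read from these shares.

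Slc18a3 measured 18.5, 27.3, 10.8 and 25.4 CPM in the Chat-rich libraries and 1.24, 10.4, 2.55 and 5.26 CPM in the Chat-poor ones. The sides did not overlap, although Pink1-/- 548 and wild-type 980 nearly met. The log2 difference was 2.04 ± 0.48, and the gene was not called. Slc5a7, the choline transporter that refills cholinergic terminals, measured 164, 289, 106 and 143 CPM against 23.8, 89.0, 49.6 and 63.7 CPM. Its sides were separate too, and its log2 difference of 1.57 ± 0.36 was not called. Slc10a4, a vesicle protein of cholinergic and monoaminergic terminals, measured 10.5, 24.6, 5.45 and 11.1 CPM against 0.914, 4.89, 1.93 and 2.16 CPM. It was called, with a log2 difference of 2.30 ± 0.45, and wild-type 504 was its highest library.

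Isl1, a homeodomain factor that motor neurons share with some other cranial neurons, measured 4.41, 4.59, 2.73 and 3.24 CPM against 0.108, 1.85, 0.207 and 0.629 CPM. The sides did not overlap, and the log2 difference of 2.37 ± 0.53 was not called. A pair of peptide genes was called. Uts2, which encodes the urotensin II peptide found in brainstem and spinal motor neurons, measured 3.64, 5.68, 3.59 and 3.53 CPM against 0.215, 1.26, 0.413 and 0.854 CPM. Calcb, the second calcitonin gene-related peptide gene, measured 10.3, 11, 6.19 and 8.70 CPM against 0.699, 4.34, 1.65 and 1.62 CPM. Both were called, with log2 differences of 2.51 ± 0.40 and 2.10 ± 0.38, and neither overlapped between the sides.

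Not every motor neuron gene followed Chat. Calca, the first calcitonin gene-related peptide gene, measured 8.76, 5.68, 5.89 and 12.3 CPM against 1.40, 13.7, 8.88 and 11 CPM. Its sides overlapped fully and its log2 difference was -0.12 ± 0.48. Ecel1, a membrane endopeptidase needed by motor axons in the mouse, was at 19.3 to 27.6 CPM in the Chat-rich libraries and 7.26 to 30.8 CPM in the Chat-poor ones, a log2 difference of 0.23 ± 0.33. Esrrb and Esrrg, orphan nuclear receptors of which Esrrg marks gamma motor neurons in the mouse, differed by 0.26 ± 0.22 and -0.09 ± 0.08. Ache, which breaks acetylcholine down, differed by 0.28 ± 0.13.

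Chodl, a membrane lectin enriched in fast motor neurons in the mouse, measured 44.2, 214, 24.6 and 32.6 CPM against 2.15, 17.1, 5.92 and 11.7 CPM. Wild-type 504 was far above every other library. The log2 difference was 2.74 ± 0.68 with that library and 1.88 without it. Prph, the intermediate filament peripherin, measured 78.1, 110, 56.9 and 99.1 CPM against 7.42, 62.0, 16.8 and 32.9 CPM. Wild-type 980 exceeded Pink1-/- 548 for this gene, so the sides overlapped, and the log2 difference was 1.53 ± 0.48. Ret, the receptor kinase for glial cell line-derived neurotrophic factor, differed by 0.82 ± 0.18, with 66.9 to 112 CPM against 40.7 to 76.9 CPM. In the plot of motor neuron genes by library, wild-type 980 is the highest Chat-poor point for every gene drawn.

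**Figure D1:**
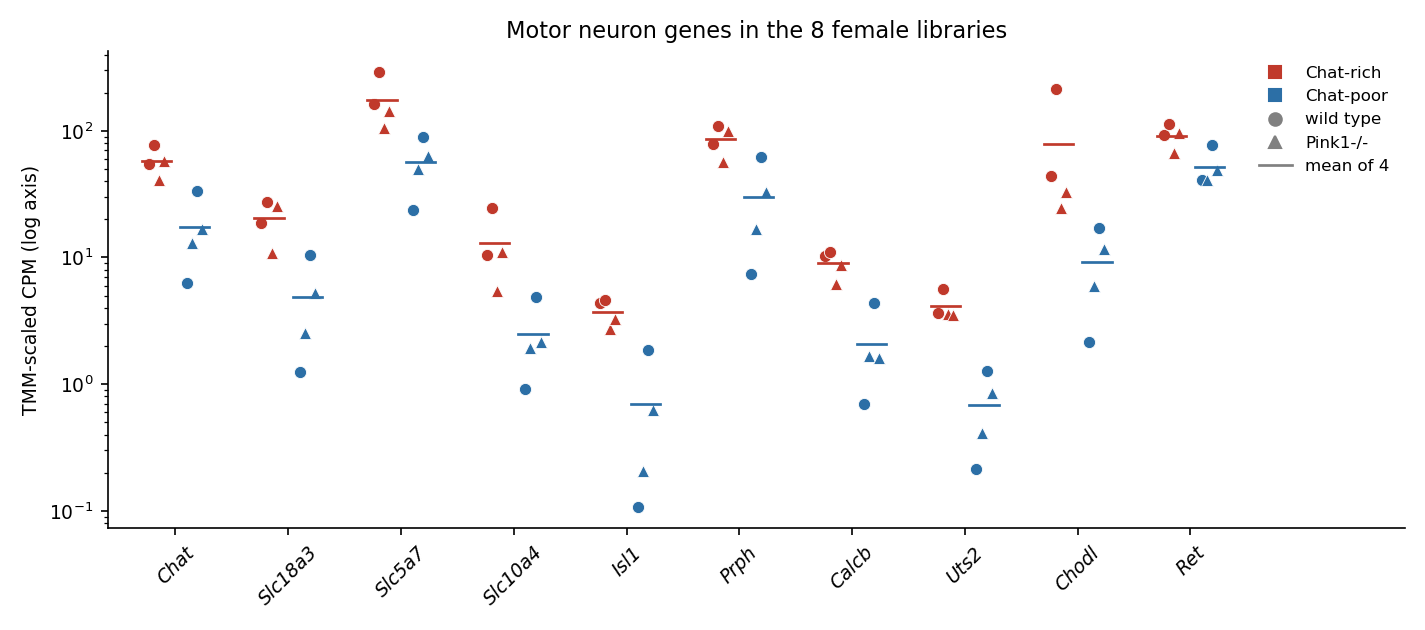
TMM-scaled CPM on a log axis for Chat and 9 other motor neuron genes in the 8 female libraries, in red for Chat-rich and blue for Chat-poor, with circles for wild type, triangles for Pink1-/- and a bar at the mean of each side's 4 libraries. The sides are separate for Slc18a3, Slc5a7, Slc10a4, Isl1, Calcb, Uts2 and Chodl and overlap for Prph and Ret; Chodl reaches 214 CPM in wild-type 504.

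The factors that specify motor neuron classes were low in all 8 libraries. Of the 5 branchial and visceral factors, 4 entered the fit, all with positive differences (median log2 0.60), and none was called. Tbx20 measured 3.26, 11.8, 2.90 and 3.53 CPM against 0.592, 2.96, 0.964 and 2.56 CPM, a log2 difference of 1.46 ± 0.54 that was 0.82 without wild-type 504. The sides overlapped, and wild-type 111, the library with the least Chat, held the least. Of the somatic factors, Mnx1 had 0 counts in every library, Isl2 0 to 1 and Lhx3 1 to 7. Phox2a, the branchial and visceral factor left out of the fit, had 2 to 15 counts. Lhx4 alone entered the fit, at 0.490 to 3.19 CPM against 0.413 to 1.93 CPM.

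Large-axon genes were higher on the Chat-rich side. Of 13 genes in the neurofilament and large axon list, 11 had positive differences, the median log2 difference was 0.37 and 4 were called higher. Nefm, the medium neurofilament chain, measured 1120, 2001, 831 and 1286 CPM against 474, 695, 415 and 541 CPM, a log2 difference of 1.28 ± 0.21. Nefh, the heavy chain, measured 2183, 3236, 1492 and 2308 CPM against 1251, 1345, 1050 and 1232 CPM, and Nefl, the light chain, ran from 1639 to 2602 CPM against 1045 to 1359 CPM. Their log2 differences were 0.90 ± 0.16 and 0.76 ± 0.12. All 3 chains were separate between the sides, with wild-type 504 highest. Ina, another neuronal filament chain, differed by -0.14.

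Spp1, which encodes osteopontin and in the adult mouse marks large motor neurons, measured 199, 350.0, 220 and 196 CPM against 116, 115, 100 and 111 CPM. The Chat-poor libraries were close together and all Chat-rich libraries lay above them, and the log2 difference was 1.11 ± 0.15. Among 11 trophic factor receptors in the fit, 6 had positive differences, the median was 0.03 and 1 was called. That gene was Gfra1, the co-receptor that presents glial cell line-derived neurotrophic factor to Ret, at 31.7, 42.9, 27.7 and 27.9 CPM against 20.4, 16.8, 13.7 and 16.0 CPM. Its sides did not overlap, and its log2 difference was 0.95 ± 0.11.

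Genes outside the motor neuron lists were among the largest positive differences. Cd24, a small surface glycoprotein of neurons and other cells, measured 25.5, 28.3, 13.2 and 29.1 CPM against 2.85, 9.79, 2.20 and 3.64 CPM, a log2 difference of 2.40 ± 0.37. Rspo2, a secreted enhancer of Wnt signalling, measured 13.9, 11.7, 9.0 and 15.9 CPM against 2.10, 4.30, 2.55 and 3.10 CPM, a log2 difference of 2.05 ± 0.24. Both were separate between the sides, and for Cd24 the library nearest the other side was 548 above and 980 below. Ahnak2, a large scaffold protein, measured 441, 454, 325 and 356 CPM against 63.0, 240, 68.9 and 107 CPM, a log2 difference of 1.75 ± 0.32. Wild-type 980 again lay between the other Chat-poor libraries and the Chat-rich side.

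Prss12, the synaptic protease neurotrypsin, measured 7.56, 9.78, 3.9 and 7.95 CPM against 1.29, 3.55, 1.72 and 2.16 CPM. Fxyd7, a neuronal modulator of the sodium pump, measured 29.9, 30.2, 18.0 and 27.2 CPM against 5.97, 13.7, 7.02 and 10.2 CPM. Fgf1, acidic fibroblast growth factor, measured 140, 256, 119 and 131 CPM against 46.1, 87.0, 45.7 and 67.2 CPM. These 3 differed by 1.71 ± 0.31, 1.49 ± 0.23 and 1.36 ± 0.23 on the log2 scale, with no overlap. Kcnj14, an inward rectifier potassium channel known from rat cranial motor nuclei, measured 53.7, 80.1, 42.4 and 60.8 CPM against 18.0, 32.4, 23.6 and 26.5 CPM, a log2 difference of 1.22 ± 0.20. Clic6, a chloride channel family member that also belongs to the choroid plexus list, measured 3.32, 3.19, 2.64 and 3.81 CPM against 0.968, 1.38, 0.964 and 1.17 CPM. Its log2 difference was 1.51 ± 0.23, again without overlap.

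Position genes went the other way: the Chat-poor libraries held more Hox transcript. Of 27 listed Hox genes, 12 entered the fit, all 12 with negative differences and a median of -1.73 (-1.33 without wild-type 504). Of these, 4 were called lower in the Chat-rich libraries. Hoxc5, which is among the 12 and the 4, passed the count filter only through the Chat-poor libraries. It could therefore enter only as a lower gene, and its direction is not a result. In all 3 scalings of the counts that were tried, the 12 remained negative, with 4, 4 and 6 called lower, the 6 under library totals alone. The scalings moved the median over all genes only from 0.0023 to -0.032. The Hox difference nearest 0 was -0.61, so these signs could hardly change and nothing is read from them. Hoxb4 measured 0.707, 0.262, 0.216 and 0.847 CPM in the Chat-rich libraries and 5.97, 4.03, 1.93 and 3.59 CPM in the Chat-poor ones, a log2 difference of -2.90 ± 0.44. Hoxc4 measured 2.72, 0.393, 0.216 and 1.13 CPM against 11.1, 7.10, 3.99 and 6.06 CPM, a log2 difference of -2.73 ± 0.51. Neither overlapped, and in both cases wild-type 111 was the highest library.

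Hoxb5 measured 1.14, 0.218, 0 and 0.517 CPM against 7.37, 2.96, 1.17 and 2.83 CPM. Its sides barely missed each other, at wild-type 64 and Pink1-/- 602, and its log2 difference of -2.97 ± 0.66 was not called. Hoxa5, whose symbol has 3 identifiers in the table so that its counts are uncertain, measured 1.03, 0.175, 0.0866 and 0.611 CPM against 6.35, 2.92, 2.20 and 4.58 CPM. Hoxc5 measured 0.218, 0, 0.0866 and 0.0941 CPM against 2.31, 1.07, 0.964 and 0.898 CPM. The last 2 were called, at -3.13 ± 0.56 and -3.66 ± 0.58. On the Chat-rich side many of these values rest on a handful of counts. The symbols Hoxa2, Hoxa3 and Hoxa4 have 2 identifiers each and are uncertain in the same way.

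The differences were smaller in the lower paralog groups. Summed over 7 genes of groups 4 and 5, the Chat-rich libraries held 8.81, 1.44, 1.64 and 4.70 CPM and the Chat-poor ones 39.5, 23.6, 14.4 and 24.4 CPM. Summed over 5 genes of groups 2 and 3, they held 21.6, 3.93, 11 and 15.5 CPM against 27.9, 25.4, 22.6 and 28.4 CPM. The sides were separate in each sum, but wild-type 64 came close to the Chat-poor side in groups 2 and 3. Hoxa2, a gene of rhombomere levels, differed by -0.61 ± 0.25, and Hoxd3 and Hoxd4 by -1.5 ± 0.55 and -1.96 ± 0.43. Over 12 genes of groups 6 and above, the Chat-rich libraries had 7, 2, 1 and 3 counts in all and the Chat-poor ones 20, 16, 9 and 12. The 8 male libraries, whose table was scaled separately, held 0.505 to 3.24 CPM in the sum of groups 4 and 5, below all Chat-poor females. Wild-type males 23 and 24, the 2 males with most Chat, held the most in that sum (3.24 and 2.36 CPM) and also in groups 2 and 3 (11.1 and 11.9 CPM), unlike the order between the female sides.

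**Figure D2:**
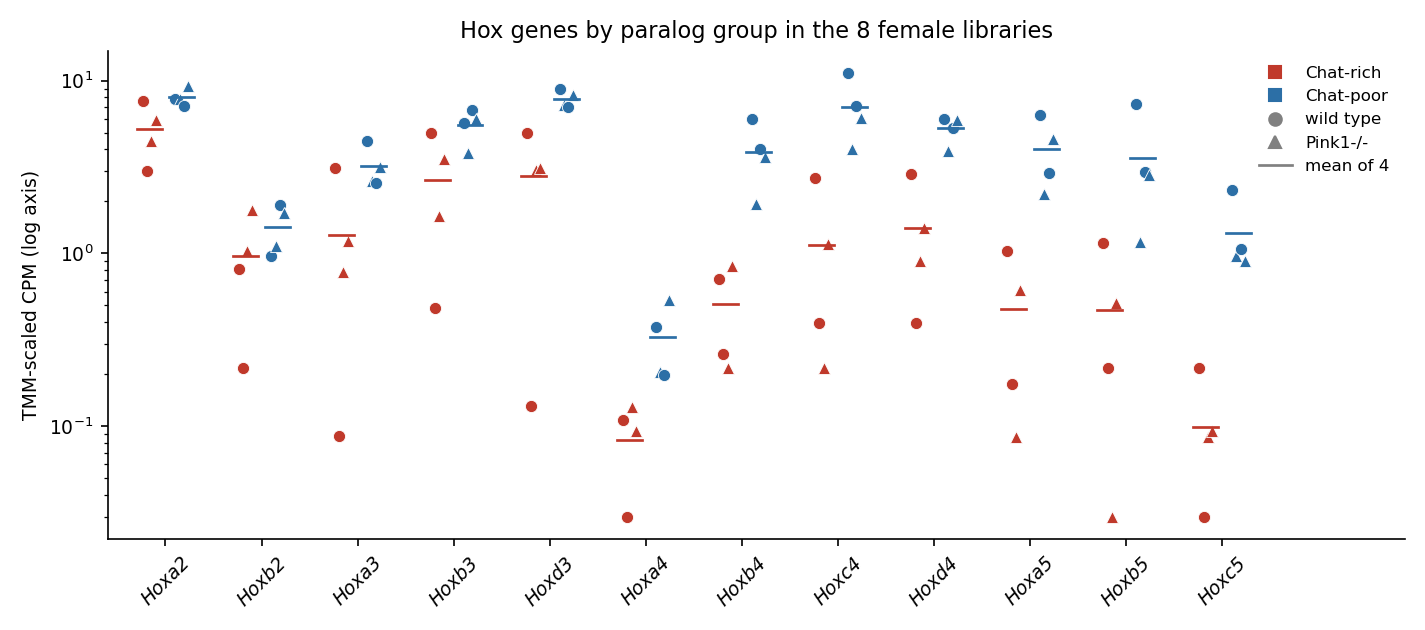
TMM-scaled CPM on a log axis for 12 Hox genes, ordered by paralog group from 2 to 5, in the 8 female libraries (red Chat-rich, blue Chat-poor, circles wild type, triangles Pink1-/-, bars means of 4 libraries; values of 0 are drawn at the bottom). The sides overlap for Hoxa2, Hoxb2, Hoxa3 and Hoxb3 and are separate for Hoxd3, Hoxa4, Hoxb4, Hoxc4, Hoxd4, Hoxa5, Hoxb5 and Hoxc5.

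Peptides of other brainstem neurons were mostly lower on the Chat-rich side. Of 13 neuropeptide genes in the fit, 11 had negative differences, the median was -0.72 and 3 were called lower, or 5 under library totals alone. Tac1, the precursor of substance P, measured 10.7, 8.91, 9.78 and 9.88 CPM against 16.1, 20.1, 23.5 and 18.6 CPM. Sst, somatostatin, measured 10.9, 10.7, 10.7 and 16.5 CPM against 19.6, 32.0, 21.6 and 27.8 CPM. Neither overlapped, and their log2 differences were -0.99 ± 0.12 and -1.06 ± 0.19. Crh, corticotropin-releasing hormone and the third gene called, was at 0.0433 to 0.326 CPM in the Chat-rich libraries and 0.482 to 2.53 CPM in the Chat-poor ones. It passed the count filter only through the Chat-poor libraries, so it could enter only as a lower gene.

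Fast-transmitter genes were mixed. Of 21 inhibitory signalling genes, 11 had positive differences, the median was 0.02, 1 was called higher and 2 lower. Gad1, which makes the transmitter GABA, measured 83.5, 119, 71.1 and 68.7 CPM against 179, 147, 145 and 138 CPM, a log2 difference of -0.85 ± 0.12 without overlap. Glra3, a glycine receptor subunit, differed by -0.78 ± 0.13. Gabra2, a subunit of the GABA-A receptor, was higher on the Chat-rich side, at 46.6, 68.9, 49.1 and 50.3 CPM against 30.3, 35.1, 34.2 and 35.7 CPM, a log2 difference of 0.66 ± 0.12. Of 22 glutamate signalling genes, 16 had negative differences, the median was -0.19, and Grik1, a kainate receptor subunit, was called lower at -0.58 ± 0.10.

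Among 13 pan-neuronal genes, 9 had negative differences, with a median of -0.10. The vesicle calcium sensor Syt1, at 95.7, 126, 94.8 and 111 CPM against 175, 185, 165 and 167 CPM, and the kinase Camk2a were called lower, by -0.69 ± 0.09 and -0.54 ± 0.10. The 10 acetylcholine receptor genes in the fit were split 5 and 5, with a median of -0.08. Their largest separation from 0 relative to its error was in Chrm3, a muscarinic receptor, at 6.63 to 8.56 CPM against 9.59 to 15.1 CPM. Of 8 receptors of the area postrema and solitary nucleus, which lie dorsal to the nucleus ambiguus, 6 had negative differences and the median was -0.46. Oprm1, the mu opioid receptor, ran from 10.3 to 15.1 CPM against 13.9 to 21.6 CPM.

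Genes listed for other brain regions, not all of them confined to those regions, also tended to the Chat-poor side. All 11 cerebellar and precerebellar genes in the fit had negative differences, with a median of -0.51 and none called. Calb1, a calcium buffer of Purkinje and other cells, measured 10.3, 8.69, 7.49 and 5.13 CPM against 19.7, 8.68, 21.1 and 15.2 CPM, so that wild-type 980 fell among the Chat-rich libraries. Zic1, a factor of cerebellar and dorsal hindbrain cells, was at 0.699 to 4.37 CPM against 4.85 to 6.75 CPM. The 3 forebrain and midbrain genes in the fit were negative too, with a median of -0.51, and 3 of the 11 listed had no count in any library. Neurod6, a cortical factor, ran from 1.66 to 2.83 CPM against 4.09 to 5.97 CPM.

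**Figure D3:**
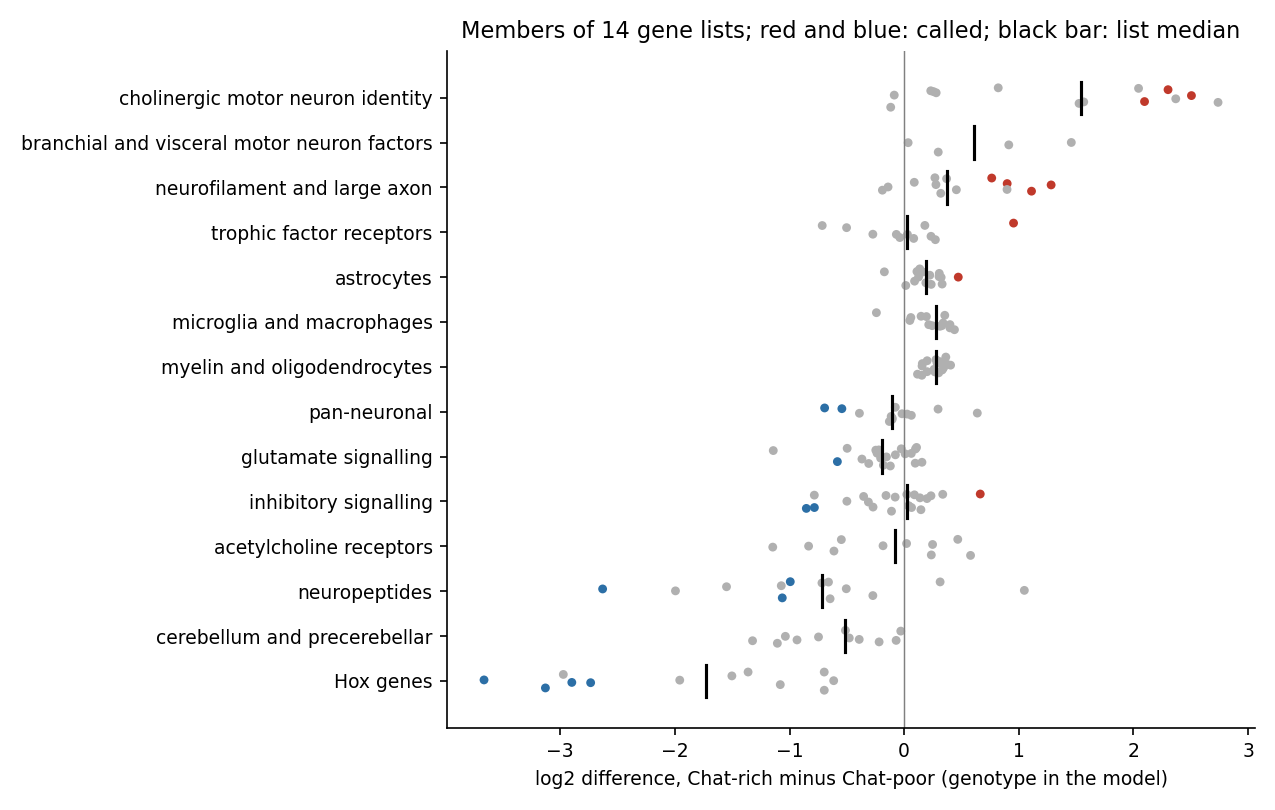
Log2 difference, Chat-rich minus Chat-poor with genotype in the model, for each member of 14 gene lists; each point is 1 gene, red for called higher, blue for called lower and grey for not called, and the black bar is the list's median. Medians run from 1.55 in the cholinergic list to -1.73 in the Hox list, and the myelin genes form a tight group above 0 with none called.

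Most glial genes had small positive differences, and 1 was called. All 19 myelin and oligodendrocyte genes had positive differences, from 0.12 to 0.41 with a median of 0.28, and none was called. Their summed level was 16897 to 18770 CPM in the Chat-rich libraries and 13925 to 15316 CPM in the Chat-poor ones. Cnp, a myelin enzyme, measured 649, 553, 657 and 615 CPM against 502, 501, 485 and 520 CPM, without overlap. Myelin genes remained positive for all 19 in all 3 scalings. However, the scalings moved the median over all genes only from 0.0023 to -0.032, too little to turn a difference of 0.12 or more. Of 15 astrocyte genes, 14 were positive with a median of 0.19, and S100b, a calcium-binding protein of astrocytes, was called higher, at 874, 856, 1077 and 1016 CPM against 606, 685, 700 and 757 CPM. Of 14 microglia and macrophage genes, 13 were positive, with a median of 0.28 and none called. Csf1r, the receptor microglia need to survive, ran from 54.2 to 67.5 CPM against 45 to 51.2 CPM. The part of these glial levels in the neuronal differences was not tested.

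Lists for the remaining cell types had medians on either side of 0. Oligodendrocyte precursor genes were positive for 5 of 8 (median 0.15), endothelial and pericyte genes for 7 of 14 (median -0.0015), ependymal genes for 3 of 6 (median 0.06) and meningeal genes for 3 of 11 (median -0.18). Genes of Schwann cells and sensory ganglia were positive for 1 of 4 (median -0.19) and stayed at 9.96 to 16.6 CPM in sum, and immediate early genes were positive for 5 of 12 (median -0.01). Of the 12 mitochondrially encoded protein genes, 3 were positive (median -0.05). None of these lists held a called gene. Of 4 choroid plexus genes in the fit, 3 were positive (median 0.71), and Clic6 was called higher. Ttr, a main choroid plexus transcript, was too low for the fit, with 3, 36, 11 and 6 counts in the Chat-rich libraries and 7, 5, 3 and 0 in the Chat-poor ones, overlapping but highest in wild-type 504. Blood genes were negative for 4 of 4 (median -0.85): Hba-a2, an alpha globin, stood at 22.1 to 25.7 CPM in the Chat-rich libraries and at 23.9, 29.0 and 22.4 CPM in Chat-poor 111, 980 and 602, but at 128 CPM in Pink1-/- 983. The globin genes are near copies, so counts may be split between them.

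Catecholamine and serotonin genes set single libraries apart rather than sides. Slc6a2, the noradrenaline transporter, measured 0.979, 55.2, 4.72 and 6.54 CPM in the Chat-rich libraries and 0.108, 2.72, 0.964 and 0.674 CPM in the Chat-poor ones. Wild-type 504 was far above every other library, and the log2 difference of 3.70 ± 1.04 became 1.58 without it. Dbh, which makes noradrenaline, measured 0, 33.0, 2.21 and 3.10 CPM against 0.753, 8.09, 0 and 3.41 CPM. Th, the first enzyme of catecholamine synthesis, measured 1.74, 22.7, 2.90 and 2.26 CPM against 1.29, 12.4, 1.24 and 3.28 CPM. For both genes wild-type 504 was highest and wild-type 980 next.

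Pnmt, which turns noradrenaline into adrenaline, measured 0.707, 0.218, 0.303 and 0.423 CPM against 0.861, 8.92, 0.344 and 1.8 CPM. Here wild-type 980 stood out and 504 was the lowest. Tph2, which makes serotonin in neurons, was at 1.03 to 1.75 CPM in the Chat-rich libraries and at 7.22 CPM in wild-type 980 against 0.275 to 1.08 CPM in the other Chat-poor ones. Slc6a4, the serotonin transporter, had 1 to 84 counts and did not enter the fit. Of 8 catecholamine genes 7 were positive (median 0.37, and -0.19 without wild-type 504), of 6 serotonin genes 1 was positive (median -0.32), and none was called in either list. Without both libraries the side contrast called 350 genes higher and 257 lower, an alternative added after the data were seen.

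**Figure D4:**
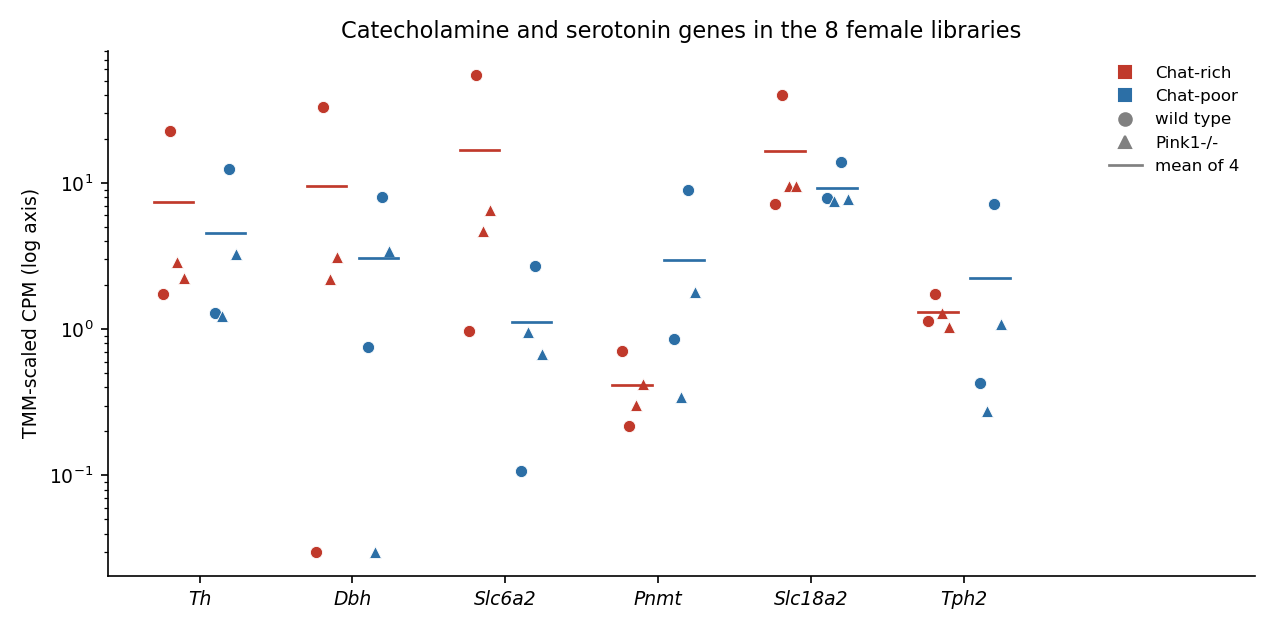
TMM-scaled CPM on a log axis for 5 catecholamine genes and Tph2 in the 8 female libraries (red Chat-rich, blue Chat-poor, circles wild type, triangles Pink1-/-, bars means of 4 libraries; values of 0 are drawn at the bottom). Wild-type 504 reaches 55.2 CPM of Slc6a2 and 33.0 CPM of Dbh, whereas wild-type 980 is highest in Pnmt (8.92 CPM) and Tph2 (7.22 CPM).

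The number of called genes depended on single libraries. Without Pink1-/- 602, the shallowest library, edgeR called 0 genes higher and 0 lower, with 1706 genes at an unadjusted p under 0.05 against 2345 with all libraries. Without 548, 736 or 983 it called 24, 10 and 14 genes higher and 10, 13 and 11 lower, without 64 it called 47 and 59, without 111 it called 35 and 36, and without 504 it called 56 and 90. Without wild-type 980, the library nearest the threshold, it called 175 and 132. With all 8 libraries DESeq2 called 298 higher and 301 lower, and limma-voom 319 and 305.

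The male libraries were not used to draw the sides and give a test of the same relation. Chat stood at 21.0, 6.78, 13.3 and 19.8 CPM in Pink1-/- males 17, 18, 19 and 25 and at 7.19, 8.63, 27.1 and 21.1 CPM in wild-type males 20, 22, 23 and 24. The slope of each gene on log2 Chat was fitted with genotype as a covariate, Chat itself left out. Of 13769 genes, 12 had a positive slope with an adjusted p under 0.05 in edgeR's quasi-likelihood test (0.0872%) and 0 a negative one (0%). At an unadjusted p under 0.05 there were 424 positive slopes (3.08%) and 245 negative ones (1.78%). DESeq2 found 41 positive and 4 negative slopes and limma-voom 27 and 1.

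Genes higher in the Chat-rich females mostly had positive slopes on Chat in males. Of the 87 genes called higher in females, all were in the male fit and 74 had a positive slope (85.1%). At an unadjusted p under 0.05, 46 had a positive slope (52.9%, against 3.08% of all 13769 genes) and 0 a negative one (against 1.78%). The count of 46 became 38 to 46 when each male library was left out in turn. Of the 93 genes called lower, 86 were in the male fit and 52 had a negative slope (60.5%). A negative slope with an unadjusted p under 0.05 was found for 6 (6.98%, against 1.78% of all genes). The median male slope was 0.19 for the genes called higher and -0.03 for those called lower, against 0.0077 over all genes. Over the 13584 genes in both fits, the correlation of the female difference with the male slope was 0.15. None of the 12 Hox genes compared in females was testable in males except Hoxa2, with a slope of -0.07 ± 0.10 (SE, 8 libraries).

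Motor neuron genes were among those called in males. Slc18a3 measured 7.01, 4.28, 6.33 and 10.4 CPM in Pink1-/- males and 2.62, 3.45, 14.9 and 10.2 CPM in wild-type males, in the order given for Chat. Its slope was 1.02 ± 0.14, with an adjusted p of 0.0287 in edgeR's quasi-likelihood test. Because counts of Slc18a3 and Chat may be shared in part, this slope may not be independent of the Chat values it was fitted on. Slc18a3 is also counted in the cholinergic list below. Slc5a7 rose by 0.97 ± 0.14 per unit of log2 Chat and Ret by 0.50 ± 0.07, with adjusted p of 0.0348 and 0.0287. Kcnj14 (0.67 ± 0.10), Susd2, a sushi-domain membrane protein (0.62 ± 0.09), Ahnak2 (0.84 ± 0.10) and Tns1, a focal adhesion protein (0.39 ± 0.05), had adjusted p of 0.0375, 0.0375, 0.0152 and 0.0287, and these were the 4 genes called in each sex. Of 13 cholinergic genes in the male fit, 12 had positive slopes, and the median slope was 0.84. Of those 12, 11 had an unadjusted p under 0.05, against 3.08% of all genes. Also called were Ecel1, the lipid gene Acly, Apob and the small heat shock protein Hspb1.

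For some genes the male slope and the female difference are set side by side, without a test of sex. Ecel1 had the smallest adjusted p in males (slope 0.84 ± 0.08, adjusted p 0.00779) and stayed called whichever male library was left out, but its sides overlapped in females. Calca had a male slope of 1.0 ± 0.21 with an unadjusted p under 0.05, against -0.12 ± 0.48 between the female sides. Spp1, called in females, had a male slope of 0.06 ± 0.07. Myelin genes, positive for 19 of 19 in females, had positive slopes for 4 of 19 in males. Cerebellar and precerebellar genes, negative for 11 of 11 in females, had positive slopes for 7 of 8 in males.

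**Figure D5:**
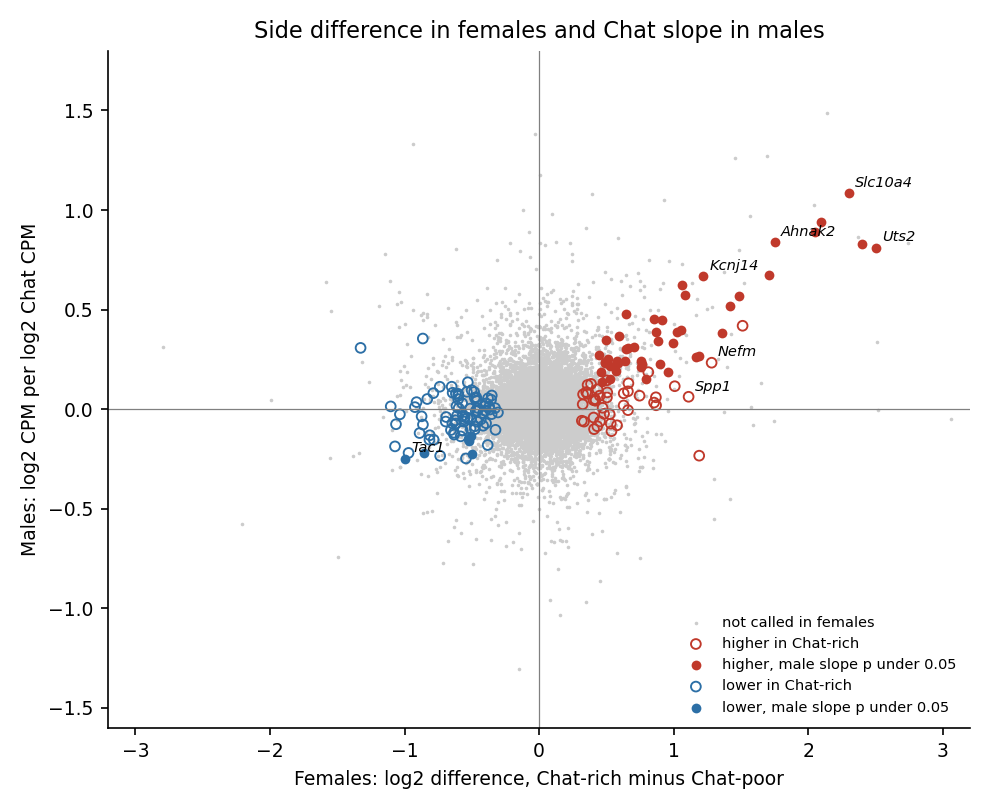
Each gene's log2 difference between Chat-rich and Chat-poor females (horizontal) and its slope on log2 Chat in the 8 males (vertical); 13581 of 13584 genes lie inside the axes, called genes are red (higher) or blue (lower), and filled points have an unadjusted male p under 0.05. Of the 87 red points 74 lie above 0, whereas the blue points lie on each side of 0.

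The male count depended strongly on single libraries. It was 45 without Pink1-/- 17, 11 without 19 and 5 without 18, and among wild types it was 2 without 20, 1 without 22, 4 without 23 and 1 without 24. Without Pink1-/- 25 it was 1. Negative slopes numbered 0 to 4 over these omissions. Without genotype as a covariate 1 gene was called. Globin genes moved with Chat as well: 3 of 4 blood genes had positive slopes with an unadjusted p under 0.05, against 3.08% of all genes. Hbb had a slope of 0.42 ± 0.16, and the part of the blood genes in the result was not tested.

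Genotype was balanced over the sides and was tested with the side in the model. In edgeR's quasi-likelihood test 12 of 15265 genes differed between Pink1-/- and wild type (0.0786%), 6 higher and 6 lower. Without the side 9 differed (0.059%), and all 9 were among the 12. Pink1 itself was at 128 ± 9.41 CPM (SD, n = 4) in wild type and 7.06 ± 3.23 CPM in Pink1-/-, a log2 difference of -4.17 ± 0.23 with an adjusted p of 4.74e-05. The other genes called lower with a symbol were Akr1b8, an aldo-keto reductase (-1.32 ± 0.09), Slc35c2, a Golgi transporter (-1.61 ± 0.12), Srd5a1, a steroid reductase (-1.05 ± 0.09), Golgb1, a Golgi tether (-0.57 ± 0.06), and LOC100363472 (-0.75 ± 0.11). Higher were Zfp40 (0.87 ± 0.09), Cnksr3 (0.76 ± 0.09), Cep295 (0.84 ± 0.12), LOC100360573, LOC100361025 and AABR07037923.1.

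Taking the side into account narrowed the error of the genotype difference. The median SE over genes was 0.118 on the log2 scale with the side and 0.129 without it, and genes at an unadjusted p under 0.05 numbered 913 and 708. The 3 genes called only with the side were Cep295, LOC100363472 and AABR07037923.1. Cep295, a centriole protein, measured 39.5, 37.3, 44.7 and 61.4 CPM in wild-type 64, 504, 111 and 980 and 81.1, 73.4, 95.4 and 74.2 CPM in Pink1-/- 548, 736, 602 and 983. Its genotypes did not overlap, and its adjusted p went from 0.172 without the side to 0.0469 with it in edgeR's quasi-likelihood test. Leaving out wild-type 980 raised the genotype count to 15 higher and 10 lower. Leaving out 504 and 980 together raised it to 103 and 70. This alternative was added after the data were seen and leaves only wild-type 64 and 111, so nothing is read from its count.

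The difference between genotypes was not found to vary with the side. Of 15264 genes, edgeR called 0 for the interaction of side and genotype (0%), with 487 at an unadjusted p under 0.05 (3.19%). DESeq2 called 8 positive and 1 negative and limma-voom 0 of each. Leaving out 1 library in turn gave 0 to 5 positive and 0 to 2 negative, the 5 coming without wild-type 111. With 2 libraries per combination of side and genotype, this test has little precision.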

How the data were processed

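RNA of 16 rat brain libraries was measured, 4 per sex and genotype. Per the labels' protocols, RNA was taken from frozen dissected brains with a Bio-Rad kit for fatty and fibrous tissue, and 500 ng of total RNA per sample went into Illumina TruSeq library preparation. The authors deposited estimated counts per gene, already whole numbers, for 32754 Ensembl rat identifiers in 1 table per sex. RSEM and edgeR 3.9 are named per the submitters' processing notes, while the aligner, build, annotation and strandedness were not given in the sources used here. RSEM divides reads between near copies, so such genes are uncertain, and without strand a gene and its antisense partner cannot be told apart. Depth limits counting error only, and no molecular identifiers are mentioned. Library columns were matched by the animal numbers in the titles, and 0 per-sample columns were left unused. The authors' comparison tables were not used. Values of a few genes are not reported here.

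The members, gene lists and tests were chosen with earlier results of these data known. Within each sex, genes passing filterByExpr of edgeR 4.0.16 in R 4.3.3 (minimum count 10, minimum total 15) were scaled by TMM and fitted with glmQLFit and glmQLFTest, with Benjamini-Hochberg adjustment. The designs were side plus genotype, their interaction, and, in males, log2 Chat plus genotype. SE is the absolute log2 difference over the square root of F. The fits were tested on simulated data. Of 373 members of 28 lists, 363 were matched, 2 through a RefSeq name; where a symbol had several identifiers the one with most counts was used.

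Named were the 4 given markers, the 10 largest called differences in each direction among genes with a symbol, separate sides and 1 CPM or more on average, up to 4 called members of each list (or the 2 with the smallest p, as values only), and genes called for genotype or in both sexes. Single library measures were compared by exact permutation. Alternatives were edgeR's relative log expression (RLE) size factors or library totals, other filters, DESeq2 1.42.0 and limma-voom (limma 3.58.1). Other covariates and leaving out each library were also tried. The labels name no batch within a sex. P-values of the fits weigh a difference against the spread between these libraries, estimated in part across genes. Permutation p-values rank a difference among all splits of 4 libraries against 4.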

Additional observations from a re-analysis of the deposited data

Results flagged for a closer look

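In 10 of 118 groups of 4 libraries that were checked, 1 library stood apart from the other 3 by the gap to its nearest neighbour, divided by the group's range, above Dixon's critical value. Dixon's value is passed by about 1 in 20 independent groups of normally distributed values. The groups here reuse the same libraries, and many hold genes chosen for their difference between the sides. That rate therefore does not apply, and nothing is read from the count of 10. Wild-type 504 was the high library in 5 of them. Among the Chat-rich libraries it had 5.68 CPM of Uts2 against 3.53 to 3.64 in the others, 256 CPM of Fgf1 against 119 to 140, and 7.34 CPM of Efnb3, an ephrin ligand, against 4.41 to 4.70. It also had 68.9 CPM of Gabra2 against 46.6 to 50.3 and 350.0 CPM of Spp1 against 196 to 220. Wild-type 64 had 2.50 CPM of Gpc3, a glypican of the cell surface, against 1.27 to 1.46 CPM in the other Chat-rich libraries. Pink1-/- 736 had 16.5 CPM of Sst against 10.7 to 10.9, and Pink1-/- 548 had 4.89 CPM of Glra3 against 4.28 to 4.30. Among the Chat-poor libraries, wild-type 111 had 2.31 CPM of Hoxc5 against 0.898 to 1.07. Among the Pink1-/- libraries, 602 had 237 CPM of Golgb1 against 209 to 210. Of these genes, Efnb3 and Gpc3 were called lower in the Chat-rich libraries, by -0.92 ± 0.18 and -1.33 ± 0.26 on the log2 scale, and neither overlapped between the sides.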

How the results depend on the processing

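With all 8 libraries the side contrast called 87 genes higher and 93 lower. The counts were within 1.5 times of these with RLE size factors, library totals, a mean of at least 1 CPM, no genotype term or the 7SL share as a covariate. They were 216 and 239 at an adjusted p under 0.10, 380 and 356 with no filter, 298 and 301 with DESeq2, 319 and 305 with limma-voom, 154 and 51 with continuous log2 Chat, and 350 and 257 without 504 and 980. Leaving out 504 and 980 together was added after the data were seen. With continuous log2 Chat only 51 of the 87 and 15 of the 93 stayed called, although these genes, chosen in the same libraries, all kept their sign. With library totals 66 of the 87 and 85 of the 93 stayed called. Leaving out 1 library gave 0 to 175 and 0 to 132. For genotype with the side, 6 and 6 became 10 and 9 at an adjusted p under 0.10, 75 and 89 with no filter, 37 and 33 with DESeq2, 48 and 27 with limma-voom, and 103 and 70 without 504 and 980. Leaving out 1 library gave 4 to 15 and 5 to 10. For the interaction, 0 and 0 became 92 and 49 with no filter and 8 and 1 with DESeq2, and 0 to 5 and 0 to 2 without 1 library. For the male slope, 12 and 0 became 20 and 2 with no filter, 13 and 1 at a mean of at least 1 CPM, 41 and 4 with DESeq2, 27 and 1 with limma-voom, 1 and 0 with no genotype term, and 1 to 45 and 0 to 4 without 1 library. Unadjusted male support for the higher genes stayed at 38 to 46 of 87 without 1 library. Library measures, Chat-rich minus Chat-poor, changed sign in places: total counts ran from -473865 (without 602) to 3757660, genes with a count from -26.5 (without 602) to 193.2, mitochondrial protein genes from -0.369 to 0.0762 (without 111) and 0.102 percentage points (without 548), clone loci from -2.07 to 1.3 (without 548), and the 50 most abundant genes from -0.489 (without 736) to 2.20. The 7SL share ran from 0.0862 to 1.14 percentage points. The cause of these shifts was not tested. Of the 40 named side genes, most of them chosen for their difference in these libraries, 0 changed sign over 756 values from the alternatives, 197 values lost the call and 22 gained it; for genotype 23 of 216 values and for the male slope 78 of 192 lost it, with 0 sign changes. No paired analysis was possible because the animal numbers differ between all groups. Depth limits Hox genes in the Chat-rich libraries, where several values rest on under 10 counts.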

Other observations

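A low transcript with a large difference was Skor2, a transcriptional corepressor of Purkinje cells in the mouse, which fell below the mean level set for named genes and was chosen after its values were seen. It measured 0.163, 0.218, 0.0866 and 0.0941 CPM in wild-type 64 and 504 and Pink1-/- 548 and 736, and 2.37, 1.54, 0.620 and 1.12 CPM in wild-type 111 and 980 and Pink1-/- 602 and 983. Every Chat-poor library was above every Chat-rich one, and the log2 difference was -3.26 ± 0.39. Skor2 passed the count filter only through the Chat-poor libraries, so it could enter only as a lower gene. Rgs9, a regulator of G protein signalling, ran from 4.06 to 5.32 CPM in the Chat-rich libraries and 6.72 to 12.8 CPM in the Chat-poor ones. Klhl14, a Kelch family member, ran from 2.34 to 3.29 CPM against 5.21 to 6.78 CPM, and Hfm1, a helicase known from meiosis, from 2.49 to 3.54 CPM against 4.95 to 7.51 CPM. All 3 were called lower, by -1.07 ± 0.19, -1.03 ± 0.18 and -0.97 ± 0.19.

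Of the called genes with a RefSeq window, 11 of 56 on the higher side (19.6%) and 16 of 66 on the lower side (24.2%) held CAGCTG in the 250 bases before the start, against 12% of all windows. TATAAA was in 4 (7.14%) and 7 (10.6%) of them against 12.9%, and TAATTA in 1 (1.79%) and 2 (3.03%) against 4.86%. The called genes were counted with 1 window per symbol. The set of all windows was not reduced in this way and includes genes that were not tested here. The shares are therefore not of like sets, and they are descriptions with no test.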
